A study of Mus musculus with 48 samples.

Results

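The 7 genes described here, Cux2, Rorb, Fezf2, Tbr1, Rasgrf2, Lamp5 and Tle4, are markers of layers of the cerebral cortex and were followed through all libraries of a mouse RNA-sequencing series on formin 2 (Fmn2). The 7 genes were taken by gene symbol from the 48709 Ensembl identifiers that each count file lists, and all 7 were found and passed the filter on low counts in every comparison. The unit is the number of sequencing reads counted on a gene, shown as CPM (counts scaled to the total of the library, with TMM normalization over all animals), or as RPKM, which also divides by the exon length, where 2 genes are compared.

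The libraries came from whole tissue of C57BL/6J mice, and the source label of every library reads dentate gyrus (DG), the hippocampal region of the granule cells. Wild-type (Fmn2+/+) and Fmn2 knockout (Fmn2-/-) mice were sampled at 3 months (5 and 5 mice) and at 8 months (3 and 5 mice). Mice from a cross with an amyloid line (APP) were sampled at 3 months, 7 labelled FMN2-/-_APP and 9 labelled FMN2 +/+ APP. A further 12 libraries, 6 from APP and 6 from wild-type mice with an age label of 4 months, carry PFC, the usual abbreviation of prefrontal cortex, in their titles. The study names the amyloid line APPPS1-21, and the promoter of its transgene is not given in the sources used here. Replicates are separate mice by the labels, and 48 files stand for 46 animals, of which 12 are called PFC-titled below and 34 DG libraries.

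The neocortex is built of layers of neurons that differ in birth date, connections and gene expression, and a small set of transcription factors and surface or signalling proteins is used to tell them apart. Cux2 is a homeodomain factor of the upper layers (layers 2 to 4), and Rorb is a nuclear receptor known for layer 4. Fezf2 is a zinc finger factor that specifies subcortical projection neurons of layer 5, Tbr1 is a T-box factor of layer 6 and other glutamatergic neurons, and Tle4 is a Groucho-type corepressor of deep-layer corticothalamic neurons. Rasgrf2, an exchange factor for Ras and Rac, marks upper-layer neurons, and Lamp5 is a LAMP-family membrane protein found in upper-layer neurons and in a class of interneurons. None of the genes is restricted to the cortex, and several are also known from hippocampal neurons.

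Facts of the whole series that bear on the results are few. Between 6818809 and 43921030 reads were counted per animal, with 7 of the 8 libraries of 8 months at 11675280 or below. Fmn2 itself lay at 102.5 ± 7.35 CPM (SD, n = 5) in 3-month Fmn2+/+ mice and at 24.8 ± 2.39 CPM (SD, n = 5) in Fmn2-/- mice, but in the cross at 90.9 ± 6.86 CPM (SD, n = 7) in the libraries labelled FMN2-/-_APP and at 20.5 ± 1.48 CPM (SD, n = 9) in those labelled FMN2 +/+ APP, which goes against both labels. Any direction within the cross is therefore given for the labelled groups only. The 8 granule cell markers summed to between 547 and 1064 CPM in the DG libraries and to between 70.7 and 89.2 CPM in the PFC-titled ones, where Dsp averaged 0.161 and C1ql2 0.405 CPM. Summed granule cell markers of the labelled tissue were thus far lower in the 12 PFC-titled libraries, with Dsp and C1ql2 near 0. These libraries are called by their title here. Choroid plexus markers stood far above the other animals in 3 DG libraries, with sums of 4125 CPM in Fmn2-/- replicate 4 of 3 months and of 9130 and 5994 CPM in replicates 4 and 5 labelled FMN2 +/+ APP.

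The genes lie on 5 chromosomes of mm10 and are all protein-coding. Cux2 (ENSMUSG00000042589) spans chr5:121856366-122050102 on the minus strand and Rorb (ENSMUSG00000036192) chr19:18930605-19111196 on the minus strand. Fezf2 (ENSMUSG00000021743) spans chr14:12342094-12348189 on the minus strand, Tbr1 (ENSMUSG00000035033) chr2:61802930-61814114 on the plus strand, and Rasgrf2 (ENSMUSG00000021708) chr13:91880400-92131656 on the minus strand. Lamp5 (ENSMUSG00000027270) lies at chr2:136052239-136069917 on the plus strand and Tle4 (ENSMUSG00000024642) at chr19:14448150-14598051 on the minus strand. Only Cux2 overlaps other genes, the antisense genes Gm3970 and Gm15637, which share no exon with it and together drew 15 reads against 46814 reads of Cux2.

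The promoters of Rorb and Tle4 are shown because both genes lie on chromosome 19 and moved in opposite directions between the PFC-titled and the DG libraries. Each window holds the 250 bases before a RefSeq transcript start (assembly GRCm38.p6, the build of mm10), in which GENCODE M21 places no exon, read 5′ to 3′ along the minus strand, with CpG dinucleotides in capitals. The Rorb window is chr19:19111197-19111446 and the Tle4 window chr19:14598184-14598433.
Rorb: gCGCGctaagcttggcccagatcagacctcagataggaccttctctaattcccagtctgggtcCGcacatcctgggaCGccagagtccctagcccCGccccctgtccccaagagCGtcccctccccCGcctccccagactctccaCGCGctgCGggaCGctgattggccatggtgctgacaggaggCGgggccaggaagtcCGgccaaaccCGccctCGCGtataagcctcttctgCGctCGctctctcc
Tle4: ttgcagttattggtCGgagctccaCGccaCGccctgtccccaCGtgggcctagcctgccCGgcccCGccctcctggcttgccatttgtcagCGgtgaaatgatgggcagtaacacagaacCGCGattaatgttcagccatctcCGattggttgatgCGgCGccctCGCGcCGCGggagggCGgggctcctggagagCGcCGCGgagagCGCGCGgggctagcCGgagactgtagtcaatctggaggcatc
Both windows are CpG-rich, unlike the window of a second Rorb start (chr19:19001118-19001367, 4 CpG dinucleotides and 39.2% GC), where the bases after the window lie in 2 of 5 GENCODE M21 transcripts, against 1 of 5 for the window shown. For Tle4 the bases after the window shown lie in 0 of 3 GENCODE M21 transcripts. The windows shown hold 18 CpG dinucleotides and a GC content of 66% for Rorb and 24 CpG dinucleotides and 65.2% for Tle4, against medians of 6 and 52.4% over all 32851 promoter windows. Across the 11 windows of the 7 genes, the CUX-type motif ATCGAT occurred in 1 window, that of a Cux2 transcript, against 0.728% of all windows. The TATA box TATAAA occurred in the same Cux2 window, against 12.4% of all windows. The ROR motif AGGTCA and the T-box motif GGTGTGA were found in 0 of the 11 windows, against 14.0% and 3.33% of all windows, with both strands searched. These are matches of letters, and no binding was measured here.

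The first question was how the 7 genes differ between the PFC-titled and the DG libraries. In wild-type mice, Cux2, Lamp5, Tbr1 and Fezf2 differed most among the 7, all higher in the PFC-titled libraries, while Rorb and Rasgrf2 were higher by smaller amounts and Tle4 was slightly lower. This comparison sets 6 PFC-titled wild-type mice of 4 months against 5 Fmn2+/+ mice of 3 months, all with lane number 5. The lane number names no sequencing run, so title, age, line of mice and run cannot be told apart. In bulk tissue, fewer cells of a type and less RNA per cell cannot be told apart either.

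Cux2 lay at 12.2, 14.0, 20.2, 23.5 and 30.7 CPM in the 5 Fmn2+/+ DG libraries of 3 months. In the 6 PFC-titled wild-type libraries it ran from 87.0 through a median of 116 to 132 CPM. Every PFC-titled animal stood above every DG animal. The log2 fold change was 2.45 (standard error, SE, 0.20, 95% interval 2.06 to 2.83, adjusted p = 3.11e-08 by the quasi-likelihood F-test of edgeR), a 5.46-fold difference.

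Tbr1, the layer 6 factor, read 55.8, 59.7, 68.5, 82.4 and 84.0 CPM in the DG libraries and from 150 through 162 to 175 CPM in the PFC-titled ones. The groups were again separate, and the log2 fold change was 1.16 (SE 0.096, adjusted p = 4.79e-08). Lamp5 read 76.0, 78.7, 78.9, 91.2 and 136 CPM in DG and from 218 through 236 to 262 CPM in the PFC-titled libraries. Its log2 fold change was 1.31 (SE 0.13, adjusted p = 3.04e-07), and the highest DG value belonged to Fmn2+/+ replicate 3, the animal that was the highest of its group in 6 of the 7 genes, all but Tle4.

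Fezf2, which specifies layer 5 projection neurons, read 22.1, 22.5, 27.8, 28.4 and 31.7 CPM in DG and from 36.9 through 57.3 to 61.9 CPM in the PFC-titled libraries. With no overlap its log2 fold change was 0.93 (SE 0.13, adjusted p = 1.58e-05), short of the threshold of 1 set for a call between tissues. Without Fmn2+/+ replicate 3 it was 1.0 and without PFC-titled wild-type replicate 4 it was 1.03, so either animal alone decides that call.

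Rorb, the layer 4 receptor, overlapped between the groups. Its DG values were 17.2, 20.9, 21.1, 21.8 and 42.2 CPM and its PFC-titled values ran from 32.7 through 34.9 to 38.7 CPM, so that 4 of the 5 DG animals lay below all PFC-titled animals and replicate 3 above them all. The log2 fold change was 0.46 (SE 0.18, adjusted p = 0.0293), and without replicate 3 it was 0.76 (adjusted p = 3.78e-07). Rasgrf2 read 157, 163, 167, 197 and 206 CPM in DG and from 188 through 218 to 240 CPM in the PFC-titled libraries, an overlap, with a log2 fold change of 0.24 (SE 0.074, adjusted p = 0.00886).

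Tle4, the corepressor of deep-layer neurons, had the opposite sign. It read 67.5, 71.5, 75.7, 77.4 and 82.2 CPM in DG and from 59.5 through 67.3 to 82.3 CPM in the PFC-titled libraries, so that the DG values lay inside the PFC-titled range. The log2 fold change was -0.19 (SE 0.078, adjusted p = 0.0404). That p was above 0.05 in 8 of 11 fits without 1 animal, up to 0.13, with DESeq2 (adjusted p = 0.0609), with the scaling factors of DESeq2 in edgeR (adjusted p = 0.0614) and in 1 fit over all groups (-0.14, adjusted p = 0.153). Without PFC-titled wild-type replicate 3, which had the highest Tle4, Tbr1 and Rorb and the lowest Cux2 of its group and an oligodendrocyte marker sum of 6205 CPM (the other 11 PFC-titled animals at 1359 to 3996 CPM), Tle4 was at -0.24 (adjusted p = 0.00276). The p of Rorb was above 0.05 in 4 of 11 fits without 1 animal, up to 0.0732.

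All 7 genes thus passed an adjusted p of 0.05, 6 higher and 1 lower. Over the 16661 genes tested, 36.3% were higher and 38.4% lower by that measure, so passing it is common between these tissues. By the stricter call, an adjusted p under 0.05 and a log2 fold change of at least 1, 3 of the 7 were called higher (Cux2, Tbr1 and Lamp5) and 0 lower, beside 12.1% of all genes called higher. The median log2 fold change of the 7 genes was 0.93 and that of all genes tested was -0.0094.

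**Figure D1:**
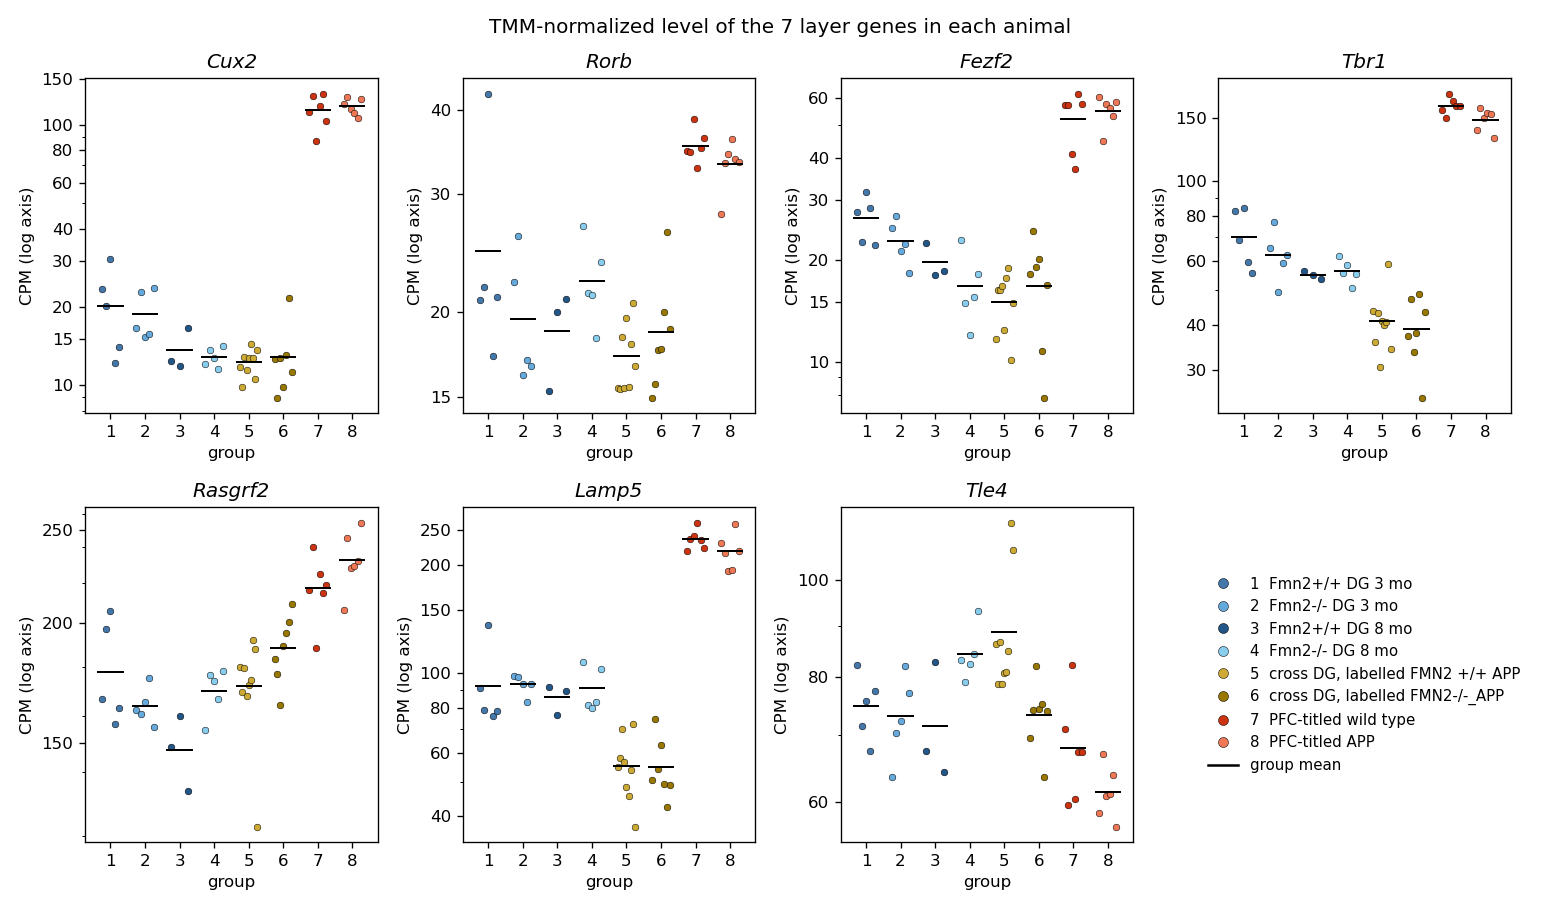
TMM-normalized CPM on a log axis for each of the 7 genes in the 46 animals, 1 point an animal and a black bar at the mean of each of the 8 groups. For Cux2, Fezf2, Tbr1 and Lamp5 the 12 PFC-titled animals lie above all 34 DG animals, and for Tle4 both PFC-titled groups have the lowest means.

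The same question was asked in amyloid mice, where the 6 PFC-titled APP libraries were set against each group of the cross. Against the 9 animals labelled FMN2 +/+ APP, Cux2 was 9.38-fold higher, with PFC-titled APP values from 105.9 through 118 to 128 CPM and cross values from 9.85 through 12.8 to 14.4 CPM (log2 fold change 3.23, SE 0.073, adjusted p = 6.17e-16). Lamp5 was higher by 1.95 (SE 0.11), Fezf2 by 1.84 (0.12) and Tbr1 by 1.82 (0.10) on the log2 scale, and none of these 4 genes overlapped between the groups. Rorb was higher by 0.91 (SE 0.077) and Rasgrf2 by 0.40 (0.076), also without overlap but under the threshold of 1. Tle4 was lower by a log2 fold change of -0.57 (SE 0.080, adjusted p = 5.87e-06), with every PFC-titled APP animal, from 56.7 to 67.05 CPM, below every cross animal, from 78.7 to 114 CPM. A share of all genes without overlap was counted only for all animals together (below), not for this or the other single comparisons.

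Against the 7 animals labelled FMN2-/-_APP the order was similar. Cux2 was higher by 3.14 (SE 0.16), Lamp5 by 1.96 (0.12), Tbr1 by 1.89 (0.12) and Fezf2 by 1.68 (0.20), while Rorb and Rasgrf2 were higher by 0.78 (0.11) and 0.26 (0.063) on the log2 scale. Tle4 had a log2 fold change of -0.30 (SE 0.060, adjusted p = 0.000399). In each comparison 4 of the 7 genes, Cux2, Fezf2, Tbr1 and Lamp5, were called higher, beside 11.6% of all genes in the first and 11.6% in the second. Both comparisons share the same 6 PFC-titled animals, all of lane 7, while the cross was spread over lanes 5, 6 and 7 (2 of its mice were sequenced a second time on lane 4).

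**Figure D2:**
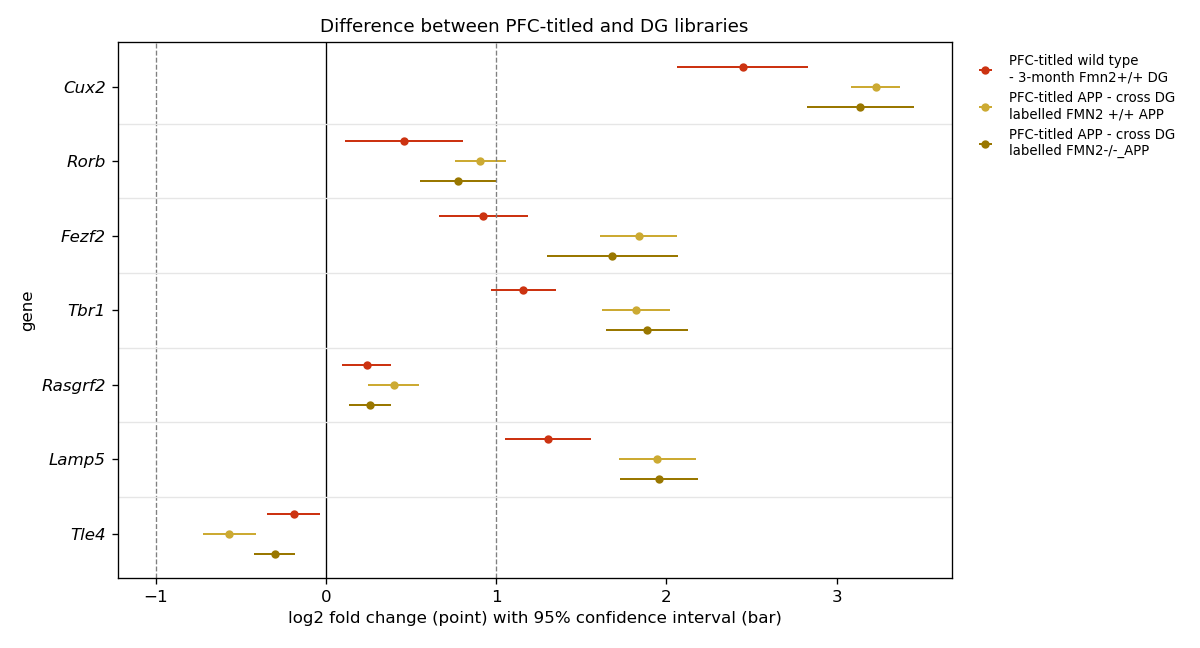
Log2 fold change (point) with its 95% confidence interval (bar) of each gene between the PFC-titled libraries and the DG libraries, in wild-type mice (red) and in APP mice against each labelled group of the cross (yellow and brown), with dashed lines at the threshold of 1. Cux2 is farthest to the right in all 3 comparisons and Tle4 alone lies left of 0.

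Taken over all 46 animals, the PFC-titled groups were 2.97 higher for Cux2, 1.57 for Lamp5, 1.55 for Tbr1, 1.48 for Fezf2, 0.77 for Rorb and 0.41 for Rasgrf2 on the log2 scale, and Tle4 had a log2 fold change of -0.26. By the stricter call 4 of the 7 were higher, beside 13.7% of the 18933 genes tested. By adjusted p alone 6 were higher and 1 lower, beside 41.6% and 38.3% of all genes. In 4 genes every PFC-titled animal lay above every DG animal, which held for 10.4% of all genes tested. The lowest PFC-titled value was 2.84 times the highest DG value for Cux2, 1.57 times for Tbr1, 1.42 times for Lamp5 and 1.17 times for Fezf2.

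The spread among animals also differed with the title. Among the PFC-titled animals the coefficient of variation was between 7.44% (Rorb) and 15.05% (Fezf2), and for Cux2 it was 11.1%. Among the 34 DG animals it was 32.6% for Cux2, 29.95% for Lamp5, 29.3% for Fezf2, 27.6% for Tbr1 and 25.9% for Rorb, but 13.6% for Tle4 and 10.9% for Rasgrf2. The DG animals come from 6 groups and the PFC-titled ones from 2, and the difference in spread was not tested.

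Set against each other per exon length, the 7 genes took a different order in the 2 kinds of library. In the PFC-titled libraries the median was 77.4 RPKM for Lamp5, 28.5 for Tbr1, 24.5 for Rasgrf2, 18.8 for Fezf2, 11.6 for Cux2, 10.95 for Tle4 and 3.11 for Rorb. In the DG libraries Lamp5 was again first with 25.97 RPKM, followed by Rasgrf2 with 18.8, Tle4 with 13.8, Tbr1 with 9.50, Fezf2 with 5.99, Rorb with 1.68 and Cux2 with 1.27. By these medians Cux2 was last in DG and the fifth in the PFC-titled libraries, but by group means it lay above Rorb in 3-month Fmn2-/- mice (1.87 against 1.77 RPKM) and below Tle4 in PFC-titled wild-type mice (11.3 against 11.9 RPKM). Of the summed RPKM of the 7 genes, Cux2 made up 6.37 ± 0.848% (SD, n = 6) in PFC-titled wild-type and 2.18 ± 0.487% (SD, n = 5) in 3-month Fmn2+/+ DG libraries. Tle4 made up 6.75 ± 0.927% and 14.9 ± 2.07% in the same groups.

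**Figure D3:**
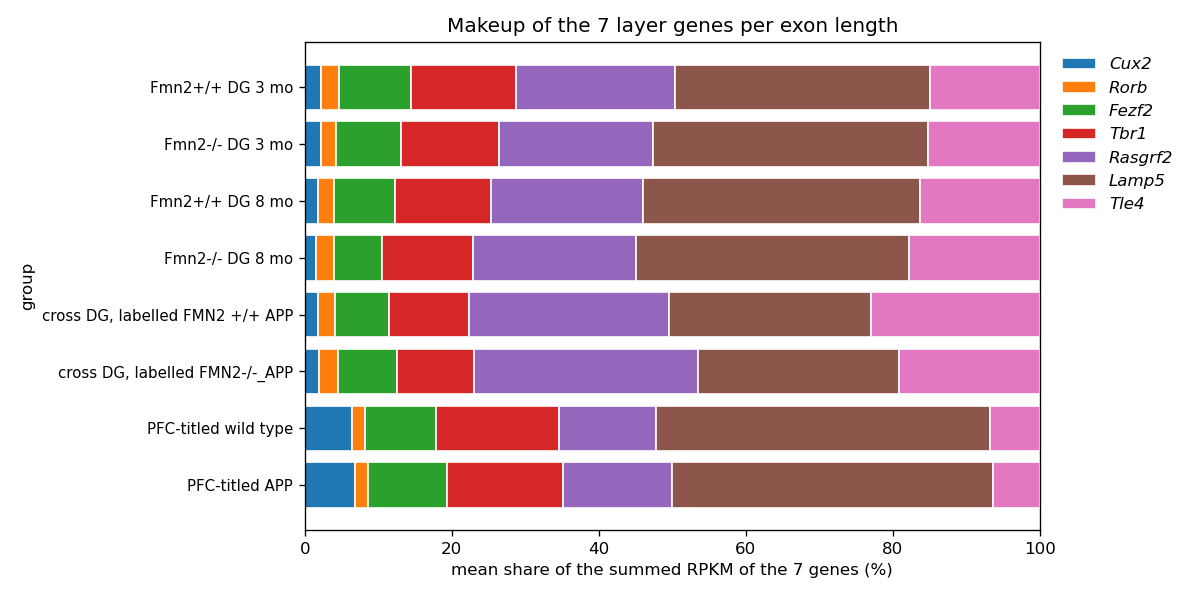
Mean share of each gene in the summed RPKM of the 7 genes (%), 1 bar a group. In both PFC-titled groups the shares of Cux2, Tbr1 and Lamp5 are larger, and those of Rorb, Rasgrf2 and Tle4 smaller, than in the 6 DG groups.

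The order of the groups differed from gene to gene. Cux2, Fezf2, Tbr1 and Lamp5 had both PFC-titled groups first, overlapping each other and separate from the next group. For Cux2 the DG groups then followed from 20.1 ± 7.46 CPM (SD, n = 5) in 3-month Fmn2+/+ mice down to 12.2 ± 1.44 CPM (SD, n = 9) in the animals labelled FMN2 +/+ APP, each overlapping the next. For Lamp5 the 8-month Fmn2+/+ mice, 85.7 ± 8.11 CPM (SD, n = 3), did not overlap the animals labelled FMN2 +/+ APP, 55.3 ± 11.1 CPM (SD, n = 9). The lowest of the former read 76.4 CPM and the highest of the latter 72.5 CPM. Those groups differ in age, line of mice and amyloid label, and the share of all genes with such a gap was not counted. For Rorb, Rasgrf2 and Tle4 each group overlapped the next in the order. Tle4 was highest in the animals labelled FMN2 +/+ APP, with 88.7 ± 12.9 CPM (SD, n = 9), and lowest in PFC-titled APP animals, with 61.3 ± 3.71 CPM (SD, n = 6).

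Other genes known from single layers, 42 in 3 lists, were read beside the 7. In wild-type mice the layer 6 and 6b list moved most, with 8 of 13 genes called higher and 3 lower and a median log2 fold change of 1.37. Oprk1, the kappa opioid receptor, rose by 3.12 (SE 0.24) and Foxp2, a forkhead factor of layer 6, by 2.59 (0.30), while Nr4a2 and Zfpm2 fell by 1.43 (0.29) and 1.38 (0.068). Of the 15 upper layer genes 2 were called higher, among them Otof by 2.28 (0.20), and 2 lower, Scnn1a with -3.67 (0.16) and Mdga1 with -2.03 (0.11), with a median of 0.18.

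Of the 14 layer 5 genes 2 were called higher, Deptor by 1.93 (SE 0.16) and Ldb2 by 1.59 (0.20), and 3 lower, among them Fam84b with -2.17 (0.12) and Bcl6 with -1.37 (0.10), with a median of 0.16. The upper layer and layer 5 lists thus held genes of both signs, as the 7 genes do with Tle4. In amyloid mice, against the animals labelled FMN2 +/+ APP, 8 of 13 layer 6 and 6b genes were called higher and 2 lower, 6 and 2 of 15 upper layer genes, and 3 and 4 of 14 layer 5 genes. In that comparison Foxp2 stood 3.09 higher on the log2 scale.

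The paralogs of the 7 genes were read as a further list. Of 15 paralogs 11 could be tested in wild-type mice, with 3 called higher and 0 lower and a median log2 fold change of -0.20. The 3 were relatives of Tle4, namely Tle2, which rose by 2.21 (SE 0.11) from 11.3 to 53.8 CPM, Tle6, which rose by 1.82 (0.22), and Tle3. Tle1 fell by 0.56 (0.065) on that scale. Rasgrf1, the relative of Rasgrf2, fell by 0.87 (0.058), from 837 ± 57.4 (SD, n = 5) to 473 ± 38.7 CPM (SD, n = 6), while Rasgrf2 itself was 0.24 higher.

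Markers of other cells and regions were measured in the same libraries. Of the 8 granule cell markers all 8 fell by adjusted p and 6 by the stricter call, with a median of -4.33, from -9.72 for Dsp, a desmosome protein, to -0.73 for Trpc6. Of the 7 striatal markers 3 were called higher (median 0.76), of the 8 CA pyramidal cell markers 1 higher and 3 lower (median -0.68), and of the 11 interneuron markers 1 higher and 2 lower (median -0.039). The 5 neuron markers had 0 calls, with 1 higher and 4 lower by adjusted p (median -0.15), and the 6 oligodendrocyte markers had 0 calls (median 0.23). Of the choroid plexus markers 2 of the 3 tested were called lower and of the 6 thalamic markers 3. The part of these cells in the values of the 7 genes was not tested.

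**Figure D4:**
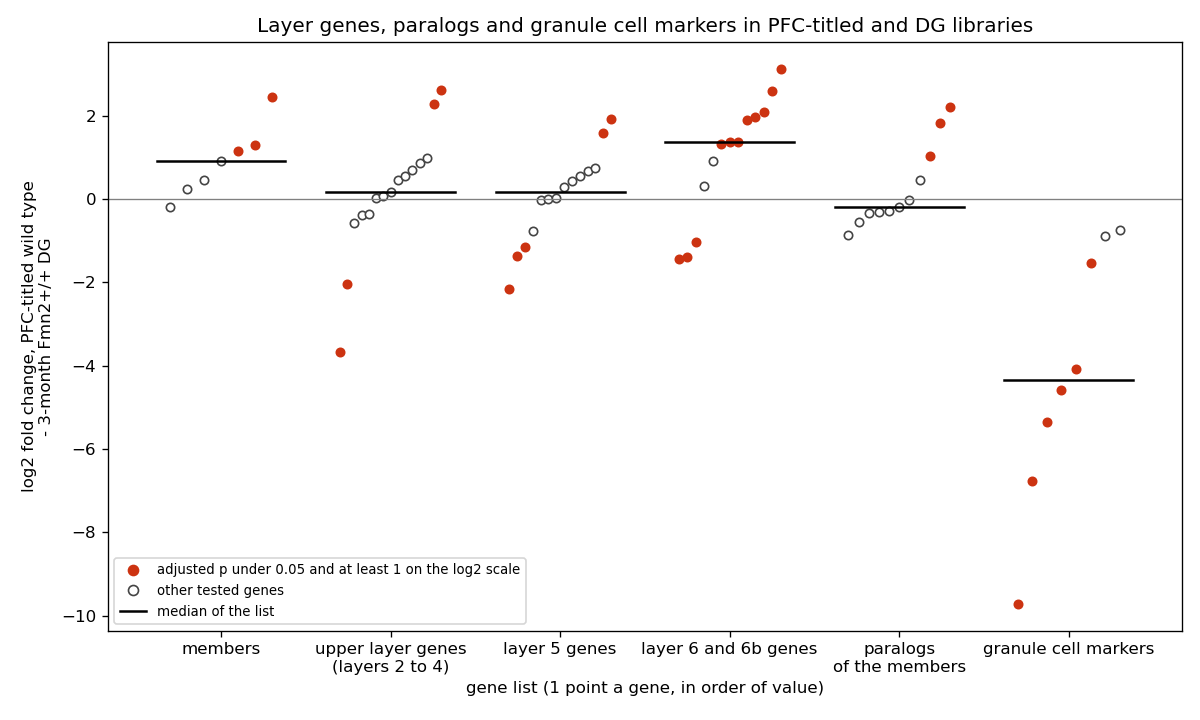
Log2 fold change between PFC-titled wild-type and 3-month Fmn2+/+ DG libraries for the 7 genes (members), 3 lists of other layer genes, the paralogs of the members and the granule cell markers, 1 point a gene, filled where called, with a black bar at each list's median. The layer 6 and 6b list has its median at 1.37, the granule cell markers theirs at -4.33.

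The second question was whether the loss of Fmn2 goes with a change in the layer genes of the DG. At 3 months 0 of the 7 genes were called between Fmn2-/- and Fmn2+/+ mice, beside 0.0301% of all genes, and 0 of the 7 had an unadjusted p under 0.05 (threshold 0.25 on the log2 scale, as for all comparisons within the Fmn2 line). Tbr1 read 49.2, 59.1, 62.4, 65.2 and 76.9 CPM in Fmn2-/- mice, inside the range of the Fmn2+/+ mice given above but for the lowest. The log2 fold changes ran from -0.35 for Rorb (95% interval -0.79 to 0.094) to 0.0080 for Lamp5 (-0.27 to 0.28), so that changes of up to these bounds remain possible. Rorb was at -0.056 without Fmn2+/+ replicate 3 and at -0.025 with the replicate block. Tle4 had the narrowest interval, -0.18 to 0.10. All Fmn2+/+ mice of 3 months were on lane 5, and all Fmn2-/- mice but replicate 1 were on lane 6. Genotype and lane can therefore hardly be told apart here, and the intervals leave lane out. With lane as a covariate Tle4 was at -0.23, outside its interval, Cux2 at -0.27 and Rorb at -0.16. That fit rests on replicate 1 as the only Fmn2-/- mouse of lane 5.

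At 8 months 0 of the 7 were called, beside 1.13% of all genes, with 2 at an unadjusted p under 0.05. These were Tle4, which read 64.3, 67.5 and 82.7 CPM in Fmn2+/+ and 79.1, 82.5, 83.3, 84.4 and 93.1 CPM in Fmn2-/- mice, and Rasgrf2, which read 134, 149 and 160 against 155, 167, 174, 176 and 178 CPM. In both genes a single Fmn2+/+ animal, the shallow replicate 2 with 6818809 reads, lay among the Fmn2-/- values. The log2 fold change was 0.26 for Tle4 (SE 0.090, adjusted p = 0.132) and 0.21 for Rasgrf2 (SE 0.080, adjusted p = 0.145). Without Fmn2+/+ replicate 2 both were called, with 0.37 for Tle4 (adjusted p = 0.00538) and 0.28 for Rasgrf2 (adjusted p = 0.0227), and in that fit 3087 genes were called in place of 166. Other fits moved the values the other way. With the length and GC correction Rasgrf2 was at 0.081 (adjusted p = 0.485) and Tle4 at 0.18 (adjusted p = 0.224). Without Fmn2+/+ replicate 3 they were at 0.15 and 0.20. Fmn2+/+ replicate 1 was the only animal of 8 months on lane 6, so lane as a covariate acts much like leaving it out. With lane, Rasgrf2 stayed at 0.21 (adjusted p = 0.42) and Tle4 was at 0.21 (adjusted p = 0.445). Without replicate 1 both were again at 0.21 (adjusted p = 0.426 for Rasgrf2 and 0.449 for Tle4).

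The difference between the 2 ages in the effect of genotype was tested as an interaction, with 0 of the 7 called beside 3.73% of all genes. Rasgrf2 had an interaction of 0.32 (SE 0.11, adjusted p = 0.0965) and Tle4 one of 0.28 (SE 0.12, adjusted p = 0.159). DESeq2 called Rasgrf2, and without Fmn2+/+ replicate 2 of 8 months both Rasgrf2 (0.40, adjusted p = 0.0302) and Tle4 (0.40, adjusted p = 0.0227) were called. With the length and GC correction the interaction was 0.15 for Rasgrf2 (adjusted p = 0.51) and 0.20 for Tle4 (adjusted p = 0.44).

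Between 3 and 8 months, Cux2 in Fmn2-/- mice was the 1 call among the 7 genes in either genotype. In those mice Cux2 read 15.4, 15.7, 16.6, 22.9 and 23.7 CPM at 3 months and 11.5, 12.1, 12.7, 13.6 and 14.1 CPM at 8 months, with no overlap. It fell by 0.55 on the log2 scale (SE 0.14, adjusted p = 0.0276). This was 1 of 7 genes, beside 6.36% of all genes. The call was lost in 5 of 10 fits that left out 1 animal, namely Fmn2-/- replicate 6 of 3 months (-0.45, adjusted p = 0.0559) and replicates 1, 2, 3 and 4 of 8 months (-0.52 to -0.57, adjusted p between 0.056 and 0.0706). It was also lost with replicates 2 and 3 of 8 months summed as 1 sample (-0.56, adjusted p = 0.055), 2 libraries that differed from each other less than any other pair of the group (chi-square per degree of freedom 1.58, against 3.28 to 5.91 for the others). It was lost as well with the replicate block (-0.43, adjusted p = 0.116), the length and GC correction (-0.45, adjusted p = 0.0858) and 1 fit over all groups (-0.56, adjusted p = 0.077).

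In Fmn2+/+ mice Cux2 read 11.8, 12.4 and 16.7 CPM at 8 months, overlapping the 3-month values, and had a log2 fold change of -0.57 (SE 0.29, adjusted p = 0.23). Fezf2 had log2 fold changes of -0.40 (SE 0.13, adjusted p = 0.0936) in Fmn2+/+ and -0.43 (SE 0.15, adjusted p = 0.0903) in Fmn2-/- mice. Of the 7 genes 0 were called with age in Fmn2+/+ mice, beside 5.98% of all genes, although all 7 had a log2 fold change below 0 (median -0.34, against 0.015 for all genes). Without Fmn2+/+ replicate 3 of 3 months the median was -0.20, Lamp5 was at 0.091, Cux2 at -0.35 and Rorb at -0.13. In Fmn2-/- mice 4 of the 7 lay below 0, with a median of -0.028. Tle4 had a log2 fold change of 0.22 there (SE 0.070, adjusted p = 0.0753), and was called without replicate 5 of 3 months (0.26, adjusted p = 0.0325). Fezf2 was called in Fmn2-/- mice without replicate 1 of 8 months (-0.57, adjusted p = 0.0313) and in both genotypes with DESeq2. In neither genotype did an animal of one age share a lane with one of the other age, so that age and lane cannot be told apart.

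**Figure D5:**
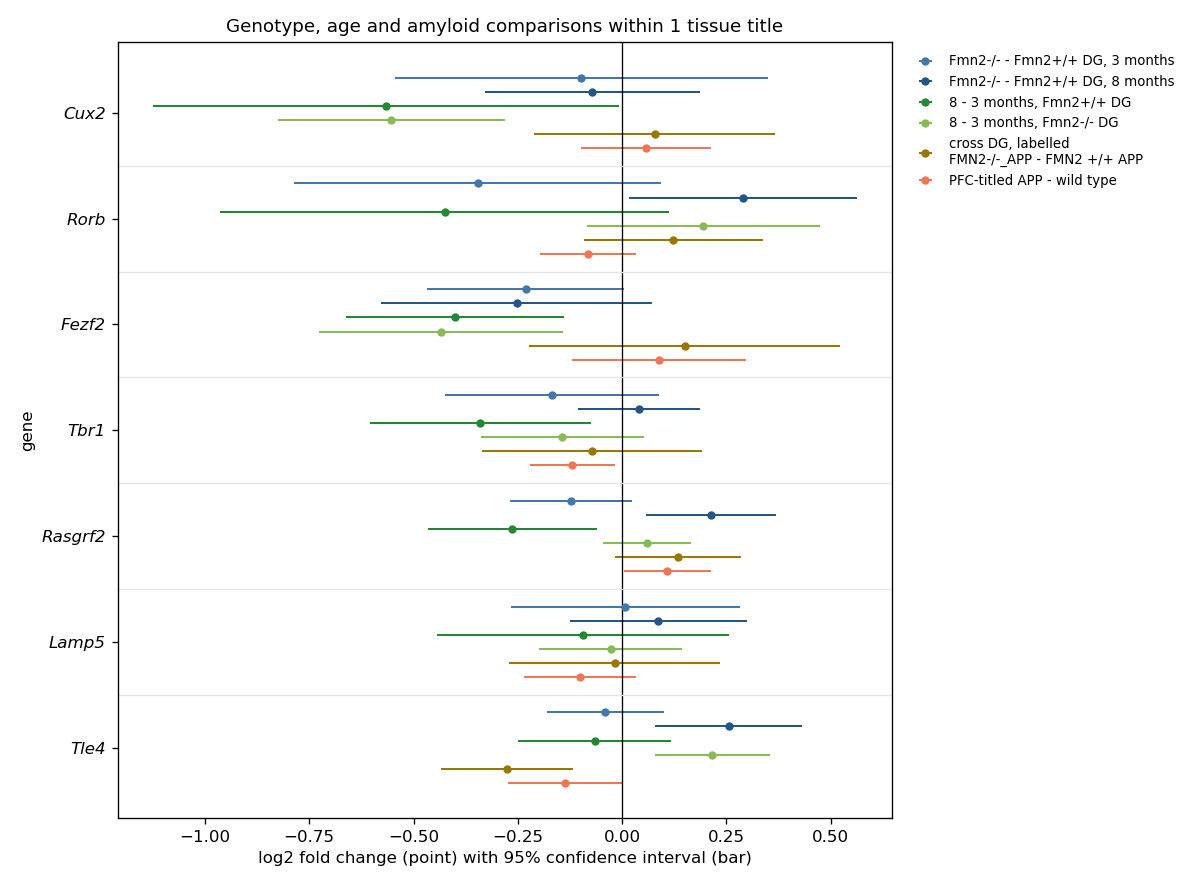
Log2 fold change (point) with its 95% confidence interval (bar) of each gene in the comparisons by genotype, age and amyloid within the DG or within the PFC-titled libraries. Cux2 and Fezf2 lie below 0 with age in both genotypes, and only Cux2 in Fmn2-/- mice was called.

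Within the cross, 0 of the 7 genes were called between the 2 labelled groups, beside 0.774% of all genes (threshold 0.5). Tle4 came nearest. It ran from 63.6 through 74.2 to 82.1 CPM in the 7 animals labelled FMN2-/-_APP and from 78.7 through 84.9 to 114 CPM in the 9 labelled FMN2 +/+ APP, where the highest animal of the first group lay above 4 of the second. The log2 fold change of the first minus the second was -0.28 (SE 0.080, adjusted p = 0.0872). On lane 5 the means were 75.3 and 81.2 CPM, with 3 animals each and an overlap. On lane 6 they were 74.4 and 82.8 CPM, 3 animals each and no overlap, and on lane 7 they were 63.6 for 1 animal and 102.04 CPM for 3. The choroid plexus markers had a median log2 fold change of -2.89 in this comparison and the oligodendrocyte markers one of 0.39, 0 of either list being called, and their part in the Tle4 values was not tested. The other 6 genes had log2 fold changes between -0.072 (Tbr1) and 0.15 (Fezf2).

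One animal of the cross was the highest or the lowest of its group in most of the 7 genes. Replicate 7 labelled FMN2-/-_APP, sequenced on 2 lanes, had the highest Cux2 (21.6 CPM) and Rorb (26.4 CPM) of its group. It had the lowest Tbr1 (25.03 CPM), Fezf2 (7.83 CPM), Lamp5 (42.5 CPM) and Tle4 (63.6 CPM). Its thalamic markers summed to 356 CPM, against 67.8 to 122 CPM in the other 15 animals of the cross. Leaving it out changed no call among the 7 genes in the comparisons with the PFC-titled libraries or within the cross.

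Between PFC-titled APP and wild-type mice 0 of the 7 genes were called, beside 2.34% of all genes (threshold 0.5). Tbr1 ran from 132 through 152 to 160 CPM in APP and from 150 through 162 to 175 CPM in wild-type mice, with a log2 fold change of -0.12 (SE 0.052, unadjusted p = 0.0354, adjusted p = 0.3) by edgeR's test. For Cux2 the log2 fold change was 0.057 (95% interval -0.099 to 0.21), for Lamp5 it was -0.10 (-0.23 to 0.032) and for Rorb -0.082 (-0.20 to 0.034). All APP animals were sequenced on lane 7 and all wild-type animals on lane 5, so genotype and lane cannot be told apart. The oligodendrocyte markers had a median of -0.79 in this comparison, with 1 of 6 called lower, and their part in these values was not tested.

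The log2 fold changes between PFC-titled and DG libraries were larger in amyloid than in wild-type mice for several genes, which led to 2 comparisons chosen after the data had been seen. The first set the 3-month DG libraries of the cross (16 animals) against those of the Fmn2 line (10 animals). Tbr1, Lamp5, Cux2 and Fezf2 were called lower in the cross, 4 of the 7 genes beside 7.26% of all genes called lower (threshold 0.5). Lamp5 had a log2 fold change of -0.76 (SE 0.10, adjusted p = 1.27e-06), with 55.04 ± 10.6 CPM (SD, n = 16) in the cross and 92.6 ± 17.3 CPM (SD, n = 10) in the Fmn2 line, and no overlap. Tbr1 had -0.74 (0.10), Cux2 -0.64 (0.14) and Fezf2 -0.64 (0.13), all with overlapping ranges, and Rorb had -0.29 (0.12, adjusted p = 0.0413), under the threshold. Rasgrf2 and Tle4 had 0.072 (0.059) and 0.12 (0.061).

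The lower values were also seen among libraries with the same lane number, which does not show that they shared a sequencing run. On lane 5 the 6 cross animals averaged 37.9 CPM of Tbr1 and 58.2 of Lamp5 against 69.3 and 93.2 CPM in 6 animals of the Fmn2 line. On lane 6 the 6 and 4 animals averaged 42.3 against 61.9 CPM of Tbr1 and 54.2 against 91.8 CPM of Lamp5. Cux2 averaged 11.2 against 19.5 CPM on lane 5 and 12.4 against 19.4 on lane 6, and Fezf2 17.7 against 26.2 and 15.7 against 22.2 CPM. Rorb differed on lane 5 (15.7 against 24.2 CPM) and hardly on lane 6 (18.3 against 18.9 CPM).

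Other lists moved in the same comparison. By adjusted p the 5 neuron markers were all lower (2 called, median -0.41) and the 6 oligodendrocyte markers all lower (4 called, median -0.66), while 3 of 8 granule cell markers were called higher and 0 lower (median 0.33). Of the 11 interneuron markers 4 were called lower. The layer 5 list had 5 genes called higher and 2 lower, the upper layer list 0 and 3, and the layer 6 and 6b list 0 and 1. Over all 17599 genes tested, 2905 were called in either direction, 1277 of them lower. Amyloid, the breeding of the cross and the handling of the experiment coincide here and cannot be told apart, and the part of other cell types was not tested.

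The second comparison tested the difference of the gaps directly, with the cross animals labelled FMN2-/-_APP and the 3-month Fmn2+/+ mice as DG groups. The gap between PFC-titled and DG libraries was wider in amyloid mice by 0.76 for Fezf2 (SE 0.26, adjusted p = 0.0303), by 0.73 for Tbr1 (0.17, adjusted p = 0.00208), by 0.69 for Cux2 (0.26, adjusted p = 0.0431) and by 0.65 for Lamp5 (0.18, adjusted p = 0.00941), 4 of the 7 genes beside 7.11% of all genes called higher. Rorb had 0.32 (0.22), Rasgrf2 0.022 (0.099) and Tle4 -0.11 (0.10). Both comparisons use those DG libraries, so the second is no separate evidence. By label the DG groups differ in Fmn2 genotype as well as in amyloid, and they come from the cross and from the Fmn2 line. Fmn2 itself averaged 90.9 CPM in these cross animals and 102.5 CPM in the 3-month Fmn2+/+ mice. The PFC-titled APP animals were on lane 7, and both wild-type groups were on lane 5. Amyloid, labelled genotype, line of mice and lane cannot be told apart in this difference. The call of Cux2 was lost in 17 of 24 fits without 1 animal. Without Fmn2+/+ replicate 3 Tbr1 was the 1 gene of the 7 called, with Lamp5 at 0.46 (adjusted p = 0.0265), Fezf2 at 0.68 (adjusted p = 0.0667) and Cux2 at 0.48 (adjusted p = 0.149). Without Fmn2+/+ replicate 1, or without PFC-titled wild-type replicate 3 or 4, Tbr1 and Lamp5 were called and Cux2 and Fezf2 were not (adjusted p between 0.0503 and 0.0841).

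Genes with a similar pattern over the animals were named by Pearson's r of log2 CPM. Over all 46 animals Cux2 was closest to Kif21b (r = 0.987), Garnl3 (0.984) and Cpne5 (0.984), and Tbr1 to Atp2b2 (0.970), Foxp1 (0.968) and Kctd1 (0.968). The gene closest to Lamp5 was Tbr1 (0.964), followed by Sytl2 (0.961) and Cabyr (0.960). Fezf2 was closest to Ttc7b (0.932), Rorb to Pou3f2 (0.916), Rasgrf2 to Acvr1b (0.890) and Tle4 to Atp6v1a (0.802). The points share the 2 kinds of library.

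To leave that out, deviations from group means were used over the 34 DG animals. Cux2 was then closest to Fnbp1l (r = 0.844), Lamp5 to Camk2n1 (0.850), Tle4 to Dpy19l3 (0.843), Rasgrf2 to Pde7b (0.797), Tbr1 to Ccnb2-ps (0.773), Fezf2 to Msra (0.768) and Rorb to Rgs20 (0.745). Among the 7 genes themselves the highest values in these animals were those of Cux2 with Rorb (r = 0.63, Spearman's rho = 0.44), Tbr1 with Lamp5 (0.55 and 0.48) and Fezf2 with Lamp5 (0.43 and 0.49). These are descriptions over animals that share lanes and groups.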

How the data were processed

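RNA of dentate gyrus or PFC-titled tissue was sequenced by the authors (TruSeq libraries), reads were aligned with STAR to mm10, and reads per gene were counted with HTSeq. The deposited files hold these raw counts for each Ensembl identifier, and 48349 of 48709 identifiers had a symbol. The files of 2 mice sequenced on 2 lanes each were summed. Total counts per animal ran from 6818809 to 43921030.

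Counts were tested with edgeR 4.0.16 in R 4.3.3 (TMM factors, filterByExpr, quasi-likelihood F-test) within the groups of each comparison, with Benjamini-Hochberg adjustment over all genes tested. A gene was called at an adjusted p under 0.05 and a log2 fold change of at least 1 between tissues, 0.25 within the Fmn2 line, and 0.5 elsewhere. The 95% intervals are the log2 fold change and its standard error in a normal approximation, and so can be narrower than the test's. CPM and RPKM were computed from the deposited counts. The fits were tested on simulated data. Alternatives were DESeq2 1.42.0, its size factors in edgeR, no filter, a replicate block, lane as a covariate, a length and GC correction, 1 fit over all groups, and leaving out each animal. Beside the 7 genes, up to 4 genes with the largest and smallest log2 fold change of each list were named, and the 3 genes most like each of the 7. The 7 genes and the lists were chosen with earlier results of these data known, and both comparisons of the cross with the Fmn2 line and of the gaps after the data had been seen. One gene of the upper layer list is not reported here by name.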

Additional observations from a re-analysis of the deposited data

Results flagged for a closer look

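Of 49 sets of 1 gene in 1 group, 6 held an animal that stood apart by Dixon's test, where chance gives about 5% of sets. In 3-month Fmn2+/+ mice replicate 3 stood apart for Rorb (42.2 CPM, the next 21.8) and for Lamp5 (136 CPM, the next 91.2). In the cross, Cux2 was at 21.6 CPM in replicate 7 labelled FMN2-/-_APP (the next 13.1), Tbr1 at 58.9 CPM in replicate 8 labelled FMN2 +/+ APP (the next 43.5), and Rasgrf2 at 123 CPM in replicate 9 with the same label (the next 168). Among PFC-titled APP mice Rorb was at 27.99 CPM in replicate 1 (the next 33.3).

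The difference between PFC-titled and DG libraries was itself different in amyloid and wild-type mice by edgeR's test of the interaction, by 0.69 for Cux2, 0.76 for Fezf2, 0.73 for Tbr1 and 0.65 for Lamp5 on the log2 scale. That test was chosen after the data had been seen, and 7.11% of all genes were called higher in it. The call of Cux2 was lost in most fits without 1 animal and with DESeq2. Without Fmn2+/+ replicate 3, the animal that stood apart for Rorb and Lamp5, Tbr1 (0.65, adjusted p = 0.00635) was the 1 call left among these 4 genes. Amyloid cannot be told apart in this test from the labelled Fmn2 genotype, the line of mice and lane.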

How the results depend on the processing

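In the comparisons between tissues and in that of the cross with the Fmn2 line, no member lost its call under any alternative. The counts of members called did change within the Fmn2 line. Without 1 animal, 0 to 2 members were called between genotypes at 8 months, 0 to 2 for the interaction and 0 to 2 with age in Fmn2-/- mice, and 1 to 4 for the difference of the gaps. DESeq2 called 1 member for the interaction (Rasgrf2, 0.34, adjusted p = 0.0433), 1 with age in Fmn2+/+ mice (Fezf2, -0.42) and 2 with age in Fmn2-/- mice. Without a filter 2 were called with age in Fmn2-/- mice. With the length and GC correction 1 was called with age in Fmn2+/+ mice and 0 in Fmn2-/- mice, where 0 were also called with replicates 2 and 3 summed and in 1 fit over all groups. For the difference of the gaps, Cux2 was not called with DESeq2 (0.70, adjusted p = 0.0607) or without a filter (0.66, adjusted p = 0.0664).

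Same-numbered animals deviated together little (r of single pairs between -0.19 and 0.27). From 3 to 7 pairs a comparison this check cannot settle whether the numbers pair animals, and the main fits used no pairing. With a replicate block 1 member was called with age in Fmn2+/+ mice (Cux2, -0.86, adjusted p = 0.0316) and 0 in Fmn2-/- mice (Cux2, -0.43, adjusted p = 0.116), and the block changed no other call of a member.

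Changes of sign were seen in log2 fold changes that were not called. Between genotypes at 3 months, Cux2 was at 0.034 with the block and between -0.24 and 0.11 without 1 animal, Lamp5 at -0.024 with the length and GC correction and between -0.057 and 0.19, and Tle4 between -0.081 and 0.0044. At 8 months Cux2 ran from -0.17 to 0.084. In the interaction Fezf2 was at 0.19 with the length and GC correction, at 0.037 with replicates summed and between -0.15 and 0.092 without 1 animal, Cux2 between -0.19 and 0.19, and Lamp5 between -0.11 and 0.15. With age Lamp5 ran from -0.17 to 0.091 in Fmn2+/+ mice without 1 animal, and was at -0.21 with the block. In Fmn2-/- mice Lamp5 was at 0.013 with the block, at 0.0053 with replicates summed and between -0.092 and 0.015 without 1 animal. In the cross Cux2 ran from -0.11 to 0.14, Tbr1 from -0.14 to 0.012 and Lamp5 from -0.11 to 0.041, and in PFC-titled mice Cux2 from -0.0056 to 0.10. For the difference of the gaps Rasgrf2 was at -0.0033 without a filter and between -0.036 and 0.065. The cause was not tested.

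Over all genes, calls higher between tissues rose without a filter to 3364, 3831, 3476 and 5206, from 2016, 1995, 1958 and 2587. Calls between genotypes went from 5 to between 2 and 90 at 3 months and from 166 to between 3 and 1124 at 8 months, those of the interaction from 635 to between 26 and 1401, those with age from 977 to between 225 and 1715 and from 1002 to at most 1167 (DESeq2), and fewest with the replicate block, and those within the cross from 129 to between 111 and 705. Without 1 animal these counts ran from 3 to 49, 4 to 3087, 8 to 2791, 148 to 3173, 563 to 1039 and 73 to 171, and from the second to the fourth the lowest count was that without Fmn2+/+ replicate 1 of 8 months, the highest that without its replicate 2. Summing replicates 2 and 3 does not apply to the Fmn2+/+ mice and was not run there. The 7 libraries of 8 months with 11675280 reads or fewer limit the comparisons by age.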
